A study of Saccharomyces cerevisiae with 24 samples.

Results

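The sub-nucleosomal landscape after bulk replication was compared between budding yeast (Saccharomyces cerevisiae) that overexpress 6 replication factors, called SSDDCS, and their sml1∆ control, in the libraries taken 45, 50 and 60 min after release from G1. Of the 58467 peaks in the data, 5775 had 240 or more reads over the 24 libraries of the series. Of these, 104 lay in the stretch of chromosome XII that holds the ribosomal DNA array, and the other 5671 were compared. Both strains are MATa haploids of the W303 background, with the alleles rad5-535, can1-100, ade2-1 and ura3-1 and, at the loci that received constructs, trp1-1, the leucine allele leu2-3, 112 and the histidine allele his3-11, 15. The SSDDCS strain carries trp1::Sld2-PGAL1-10-Dpb11::TRP1, the construct leu2::Sld7-PGAL1-10-Cdc45::LEU2, a further construct at his3 with SLD3-A and Dbf4-A on either side of PGAL1-10 and the marker HIS3, and sml1_delta::HphNT. The control carries sml1_delta::URA3. The 3 added constructs express the 6 factors from the divergent GAL1-GAL10 promoter. Cultures of both strains were grown in raffinose, arrested in G1 with alpha factor, given galactose for 30 min and released into galactose medium, so the control had the same medium without the constructs and the G1 libraries already had galactose. Each strain and time was 1 library. There were thus no replicates and no test across strains, and the 3 times are successive samples of 1 culture.

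Sub-nucleosomal MNase-seq sequences short DNA fragments that micrococcal nuclease leaves intact because a protein smaller than a nucleosome covers them. Peaks therefore mark footprints of transcription factors, the origin recognition complex, RNA polymerase machinery or partly unwrapped nucleosomes. Replication forks displace such proteins, which have to rebind behind the fork, and overexpression of limiting initiation factors makes origins fire early across the genome. Comparing the strains once most DNA has been copied asks which footprints still differ when S phase is largely over.

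The labels' timing was checked in the shallow peaks, whose reads were taken to follow DNA copy number, which was not tested. Reads of peaks under 240 reads within 5 kb of an annotated origin, over those 15 kb or more from any origin and relative to G1 of the same strain, had a log2 ratio of -0.02, -0.06 and -0.02 at 45, 50 and 60 min in SSDDCS and of -0.01, -0.03 and -0.01 in sml1∆. The highest values were 0.52 in SSDDCS, at 15 min, and 0.33 in sml1∆, at 20 min. At the times compared, the excess of reads near origins was thus no longer seen in either strain.

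The depth of the 6 libraries was 481930 to 522283 reads, of which 341427 to 369332 fell outside the ribosomal DNA. Pooled over the 3 times, SSDDCS had 1061047 reads and sml1∆ 1061346, so equal occupancy corresponds to an SSDDCS share of 49.993%. Per peak, the pooled reads of both strains had a median of 96, with quartiles of 73 and 134 and a range of 28 to 1251. The median peak held 15.7 reads per SSDDCS library and 16.3 per sml1∆ library. A peak is called higher or lower in SSDDCS where the log2 ratio of pooled reads, each scaled to its total and with 0.5 added, was at least 1 or at most -1. Just above the minimum depth, 403 peaks with 240 to 249 reads held 5 higher and 5 lower peaks, and just below it 483 peaks with 230 to 239 reads, not compared, held 9 and 3. Intervals given with a share are 95% Clopper-Pearson intervals and cover counting error only.

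Among the compared peaks, the highest ratios sat at loci that the genotypes alter. The divergent promoter between GAL1 (galactokinase) and GAL10 (the epimerase of the same pathway) is the promoter of the 3 constructs. It is printed here from the first to the last of its peaks (chrII:278490-278740, R64, plus strand), with capitals for matches to the site of the activator Gal4, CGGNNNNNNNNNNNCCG, searched on both strands. Gal4 acts through such sites to induce genes on galactose.
GAL1-GAL10: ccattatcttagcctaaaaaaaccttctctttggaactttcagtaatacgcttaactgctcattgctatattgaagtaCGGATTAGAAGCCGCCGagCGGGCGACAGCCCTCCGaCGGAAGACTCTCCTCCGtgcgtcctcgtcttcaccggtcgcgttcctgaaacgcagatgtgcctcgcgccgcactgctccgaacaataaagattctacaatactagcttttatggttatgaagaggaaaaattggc
A match lay within 50 bp of 98 of the 5671 peaks (1.73%). Telomeric DNA supplied another group of higher peaks. The 3 of them named between genes share a run of 19 bases, shown in capitals (VIII 556713 is chrVIII:556663-556763 and IV 1525239 is chrIV:1525189-1525289, both plus strand, and III 479 is chrIII:429-529, minus strand).
VIII 556713: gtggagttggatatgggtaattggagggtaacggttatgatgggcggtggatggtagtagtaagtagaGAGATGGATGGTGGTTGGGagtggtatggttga
IV 1525239: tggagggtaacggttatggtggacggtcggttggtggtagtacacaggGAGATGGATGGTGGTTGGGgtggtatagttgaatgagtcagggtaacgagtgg
III 479: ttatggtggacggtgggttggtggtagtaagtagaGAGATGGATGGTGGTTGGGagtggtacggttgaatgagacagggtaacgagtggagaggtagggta
The run occurs 10 times in the R64 genome, on either strand, and within 50 bp of 5 compared peaks (0.0882%), all 5 of them in annotated telomeric regions. Outside these classes, the most clearly raised and the deepest lowered peak lay beside CYC1 and ISU2 (X 526730 is chrX:526680-526780 and XV 762259 is chrXV:762209-762309, both plus strand). The capitals mark matches to the Abf1 site, TCANNNNNNACG (11.3% of compared peaks on either strand), and to the Ste12 site, TGAAACA (2.19%). The ISU2 window also held the loose Mcm1 pattern CCNNNNNNGG, which is left in lower case and lay in 21.3% of compared peaks, and the CYC1 window held no match to any of the motifs searched.
X 526730: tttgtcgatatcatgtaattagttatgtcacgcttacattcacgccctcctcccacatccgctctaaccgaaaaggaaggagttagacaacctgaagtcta
XV 762259: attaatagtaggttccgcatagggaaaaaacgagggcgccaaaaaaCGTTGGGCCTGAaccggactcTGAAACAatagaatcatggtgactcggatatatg

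Of the 5671 peaks, 37 (0.652%) were higher and 41 (0.723%) lower in SSDDCS after bulk replication. The higher peaks had log2 ratios up to 2.54 and the lower ones down to -1.50. The higher set consisted of 13 peaks at loci altered by the genotypes, 10 in telomeric regions and 14 elsewhere, whereas none of the lower peaks was altered or telomeric and 3 lay at transposons or long terminal repeats. By position, 21 of the 1302 compared coding peaks were higher (1.61%) and 12 of the 3790 promoter peaks (0.317%). A promoter peak lies outside genes and up to 1000 bp upstream of a start codon. Lower were 9 of the coding peaks (0.691%) and 25 of the promoter peaks (0.660%), both near the share of all peaks. The higher coding peaks included those inside HIS3, CDC45, TRP1, DBF4 and LEU2 and others in telomeric regions. The log2 ratio of all compared peaks had a median of -0.10 and an SD of 0.37. When ratios were centred on that median, 53 peaks were higher and 17 lower, so the split between the directions depends on the scaling. Single libraries weighed on the counts as well. There were 52 higher and 83 lower peaks without 45 min, 79 and 76 without 50 min, and 85 and 78 without 60 min.

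**Figure D1:**
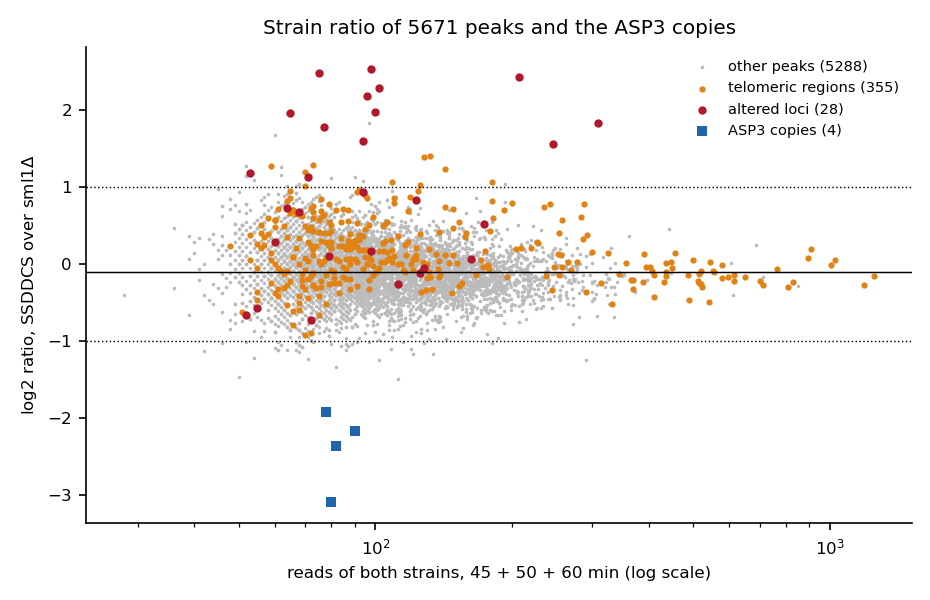
Log2 ratio of pooled reads, SSDDCS over sml1∆, at 45, 50 and 60 min against the pooled reads of both strains (log axis), 1 point per peak, with altered loci, telomeric regions and the ASP3 copies of chromosome XII in colour. The solid line is the median of -0.10, the dotted lines are the 2-fold limits, and the altered loci reach 2.54 while the 4 ASP3 peaks lie between -3.09 and -1.92, below all compared peaks.

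The direction was steady over the 3 times for most called peaks. Of the 37 higher peaks, 35 had the same sign at 45, 50 and 60 min, and of the 41 lower peaks 37 did. Among all 5671 peaks, 639 (11.3%) were higher at each of the 3 times and 1098 (19.4%) lower. In 34 of the higher peaks all 3 SSDDCS libraries were above all 3 sml1∆ libraries, set beside 4.04% of all compared peaks, and in 32 of the lower peaks all were below, set beside 8.52%. These counts use the same reads as the calls and describe them without testing them. Past 2-fold at each of the 3 single times were 14 higher peaks but 4 lower ones.

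The libraries before 45 min were not used for the calls. In G1, 205 of the compared peaks (3.61%) were 2-fold higher in SSDDCS and 183 (3.23%) lower, from 1 library per strain, and of the called peaks 13 of the 37 higher and 3 of the 41 lower were past 2-fold the same way. Their median G1 ratio was 0.81 for the higher and -0.09 for the lower peaks, against 0.01 for all peaks. Pooled over 15, 20 and 25 min, 59 peaks (1.04%) were higher and 46 (0.811%) lower, of which 57 and 45 kept their sign at all 3 times. This window held 16 of the 37 higher peaks and 2 of the 41 lower ones. Part of the higher set was thus past 2-fold before replication began. That part included peaks of the GAL1-GAL10 promoter, HIS3, CDC45 and TRP1, where the genotypes differ. It also included peaks outside the altered loci, such as X 526730 (G1 log2 ratio 2.35) and IV 1525239 (1.66). Another was the peak inside YPR204W (1.64), from 4 G1 reads in SSDDCS and 1 in sml1∆. Few of the lower peaks were past 2-fold in G1, and none of the lower set lay at an altered locus. Both sets were called on the late ratios, so smaller earlier ratios can come from that choice.

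With no replicates, the nearest scale for a strain difference is the step between neighbouring times of 1 strain, which also contains change over the cell cycle. Between strains, 9.54% of the peaks were past 2-fold in either direction at 45 min, 7.94% at 50 min and 7.86% at 60 min. Within SSDDCS the share was 7.71% from 45 to 50 min and 6.97% from 50 to 60 min. Within sml1∆ it was 10.5% and 6.26% for the same steps. Single libraries of the strains thus differed about as often as successive libraries of 1 strain. Over all times after G1, the share between strains ranged from 7.86% to 15.0%, and steps ranged from 6.97% to 11.1% in SSDDCS and from 6.26% to 10.5% in sml1∆. The 3 single-time ratios were weakly correlated across the 5671 peaks, with Pearson's r of 0.11 to 0.12, and these points share the depth of their peaks.

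**Figure D2:**
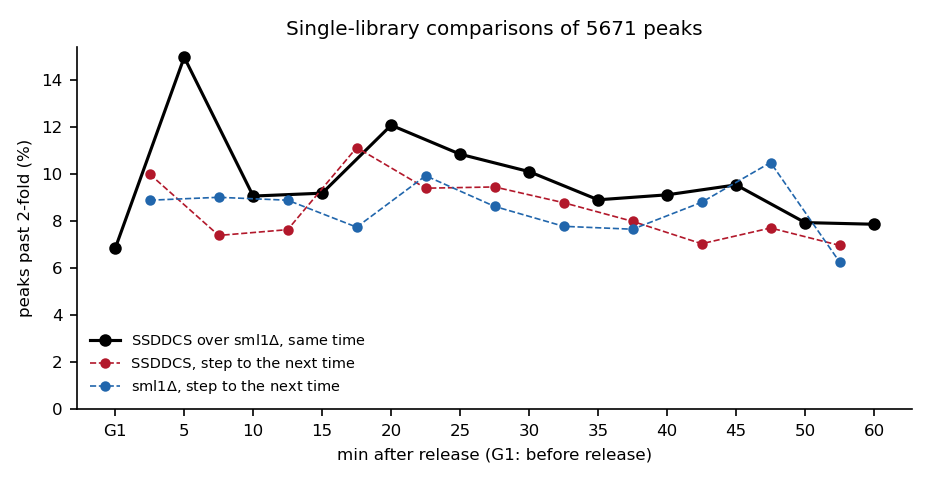
Share of the 5671 peaks past 2-fold in either direction (%) for the strains at the same time (black), and for the step to the next time within SSDDCS (red) and within sml1∆ (blue), by min after release. At 45, 50 and 60 min the black points are at 9.54%, 7.94% and 7.86%, against 7.71% and 6.97% for the red steps after 45 and 50 min and 10.5% and 6.26% for the blue ones.

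The constructs' promoter stood highest among deep peaks. Its 3 peaks summed to 600 pooled reads in SSDDCS and 161 in sml1∆. The peak at 278490, 138 bp upstream of GAL10, had 59, 59 and 57 reads in SSDDCS and 9, 12 and 11 in sml1∆ (log2 ratio 2.43). The peak at 278590 had 58, 66 and 60 reads in SSDDCS and 20, 22 and 20 in sml1∆ (1.56). The deepest, at 278740 and 281 bp upstream of GAL1, had 71, 84 and 86 reads in SSDDCS and 25, 18 and 24 in sml1∆ (1.84). None of these groups overlapped. Summed over the promoter, SSDDCS was above sml1∆ in all 12 times of the series, G1 included, and the log2 ratio over the 9 times before 45 min was 1.93. By contrast, all peaks inside GAL1 summed to 188 reads in SSDDCS and 170 in sml1∆ (0.15), and those inside GAL10 to 124 and 130 (-0.07). The excess was thus in the promoter and not in the neighbouring coding sequences of the native locus.

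Reads inside the genes of the overexpressed factors, which the constructs add as further copies, were also more numerous. Cdc45 is part of the replicative helicase, and the peaks inside its gene summed to 389 reads in SSDDCS and 103 in sml1∆ (log2 ratio 1.91, SSDDCS share 79.1%, 75.2% to 82.6%). DBF4, the regulatory subunit of the Cdc7 kinase, had 325 reads in SSDDCS and 97 in sml1∆ (1.74). SLD3, which brings Cdc45 to origins, had 182 in SSDDCS and 62 in sml1∆ (1.55). DPB11, a scaffold of origin firing, had 333 and 145 (1.20). SLD2, the partner of Dpb11, had 178 and 107 (0.73), and SLD7, the partner of Sld3, had 149 and 89 (0.74, share 62.6%, 56.1% to 68.8%). The 6 factors were thus all above the equal share of reads, with SLD2 and SLD7 below the 2-fold limit. These sums run over peaks of every depth, since SLD2 and SLD3 had no peak with 240 reads.

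The marker genes followed their genotypes. HIS3 (histidine synthesis) had 240 reads in SSDDCS and 54 in sml1∆ (log2 ratio 2.14), and its peak at chromosome XV position 722152 had the highest ratio of the comparison, with 26, 32 and 26 reads in SSDDCS and 6, 2 and 6 in sml1∆ (2.54). TRP1 (tryptophan synthesis) had 161 reads in SSDDCS and 43 in sml1∆ (1.89). LEU2 (leucine synthesis) had 220 and 90 (1.29). URA3 (uracil synthesis), the marker that only the control carries as an added copy, had 63 reads in SSDDCS and 118 in sml1∆ (-0.90, share 34.8%, 27.9% to 42.2%). No peak lay inside SML1, the ribonucleotide reductase inhibitor deleted in both strains, and the peak 222 bp upstream of it had 63 pooled reads in SSDDCS and 65 in sml1∆. Of the 28 compared peaks in or up to 1000 bp upstream of altered loci, 13 were higher and none lower, and their median ratio was 0.89 over the pooled reads and 0.93 in G1. Added copies of these sequences map to the native loci, so more copies and more protection per copy cannot be told apart.

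Beside HIS3, the promoter of DED1 (an RNA helicase of translation initiation) held a peak at chromosome XV position 722753 with 130 pooled reads in SSDDCS and 63 in sml1∆ (log2 ratio 1.04). It lay outside the HIS3 locus as defined here, 158 bp upstream of DED1. Among the 1586 compared peaks with 480 or more reads, 5 were higher. They were the DED1 peak, the 3 peaks of the GAL1-GAL10 promoter and a telomeric peak on chromosome XV at position 280. The 4 lower peaks at that depth lay upstream of ISU2, LEU4, GDH1 and the divergent pair SPS18 and SPS19.

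The largest rise outside the loci counted here as altered was at chromosome X position 526730. This position lay 66 bp past the end of CYC1 (iso-1-cytochrome c), between CYC1 and the convergent gene UTR1 (an NAD kinase). This peak had 24, 30 and 22 reads in SSDDCS and 7, 7 and 7 in sml1∆ (log2 ratio 1.83, share 78.4%, 68.8% to 86.1%). The difference preceded S phase, with 31 reads in SSDDCS and 6 in sml1∆ in G1. SSDDCS was higher at all 12 times, and over the 9 times before 45 min it had 245 reads and sml1∆ 80 (1.62). The number of copies of this sequence in each strain was not tested. The peak at 526730 was the only higher one between convergent genes, where 6 of the 257 compared peaks were lower (2.33%).

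At chromosome VIII position 117069, 745 bp upstream of STP2 (a transcription factor of amino acid uptake), reads were 15, 14 and 17 in SSDDCS and 4, 6 and 4 in sml1∆ (log2 ratio 1.68, share 76.7%). Here the 9 earlier times gave 106 reads in SSDDCS and 108 in sml1∆ (-0.01), and G1 gave 10 and 17. The ratio at 15 to 25 min was 0.77, and SSDDCS was above sml1∆ at 8 of 12 times, so the direction varied before 45 min. Inside PEX28 (a peroxisomal membrane protein), the peak at 397661 of chromosome VIII had 11, 16 and 17 reads in SSDDCS and 3, 8 and 7 in sml1∆ (1.27), with 0.22 earlier. A peak 523 bp upstream of PCL2, a cyclin of the Pho85 kinase, had 14, 10 and 12 reads in SSDDCS and 4, 6 and 6 in sml1∆ (1.15), with -0.12 earlier. At YOL163W, 815 bp upstream, the reads were 16, 15 and 12 in SSDDCS and 7, 7 and 5 in sml1∆ (1.16). The strain groups did not overlap at any of these peaks, all of which held few reads.

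Peaks in telomeric regions, near the tips of chromosomes, made up most of the other higher peaks named. At VIII 556713, 5930 bp from the end, reads were 26, 33 and 37 in SSDDCS and 9, 13 and 14 in sml1∆ (log2 ratio 1.40, share 72.7%, 64.3% to 80.1%). At IV 1525239, between PAU10 and the Y' helicase gene YRF1-1, they were 22, 34 and 37 in SSDDCS and 9, 16 and 10 in sml1∆ (1.40). Both were higher in SSDDCS at all 12 times, with 142 reads in SSDDCS and 75 in sml1∆ at VIII 556713 over the 9 earlier ones, and 191 and 68 at IV 1525239. At III 479, close to the left tip, they were 33, 34 and 33 in SSDDCS and 14, 12 and 16 in sml1∆ (1.24), while the earlier times gave 0.34. The other 2 compared peaks that hold the shared run, on chromosomes X and XII at positions 745522 and 11437, were not called but lay above 0 as well. The first had 32, 39 and 44 reads in SSDDCS and 19, 24 and 22 in sml1∆ (0.82), and the second had 37, 37 and 35 in SSDDCS and 20, 30 and 22 in sml1∆ (0.60).

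Higher telomeric peaks also lay in genes of the Y' elements, which encode a helicase. YRF1-1 on chromosome IV held one at position 1531440, with 18, 17 and 17 reads in SSDDCS and 6, 7 and 8 in sml1∆ (log2 ratio 1.29), and one at 1528290, with 16, 19 and 14 in SSDDCS and 5, 11 and 5 in sml1∆ (1.20). YPR204W on chromosome XVI held one with 19, 12 and 11 reads in SSDDCS and 4, 6 and 7 in sml1∆ (1.28), where the 9 earlier times gave -0.10. Telomeric repeats exist in near-identical copies, so the authors' mapping may have shared reads among them, and the tips of the W303 strains can differ from the S288C reference. The number of copies each strain carries was not tested.

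**Figure D3:**
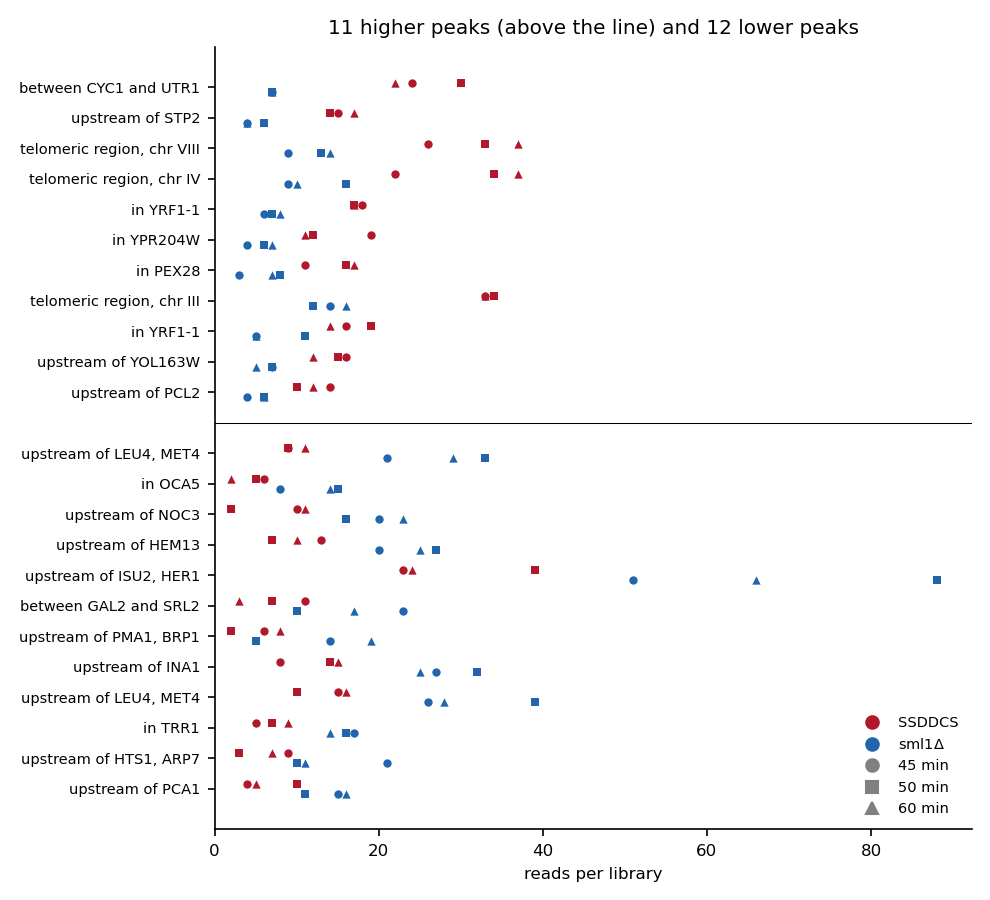
Reads per library of 11 higher peaks (above the line) and 12 lower peaks named by rule outside altered loci, SSDDCS in red and sml1∆ in blue, with circles, squares and triangles for 45, 50 and 60 min. The red and blue points are apart in every row except the lower peaks between GAL2 and SRL2 and upstream of PMA1, and the deepest row is ISU2, with 23 to 39 reads in SSDDCS and 51 to 88 in sml1∆.

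Over whole telomeric regions the difference was small. The 355 compared peaks there had a median log2 ratio of 0.07, against -0.10 for all peaks, with 10 higher and none lower. Their reads per 10000 were 301 in SSDDCS and 277 in sml1∆ at 45 min, 290 in SSDDCS and 276 in sml1∆ at 50 min, and 291 in SSDDCS and 304 in sml1∆ at 60 min, so the direction of the sums turned at the last time. The median of the regions was -0.05 at 60 min, against -0.11 for all peaks. The median was 0.18 within 2 kb of an end, 0.08 from 2 to 5 kb and 0.00 from 5 to 10 kb. At 15 to 25 min it had been 0.22 over the telomeric regions, and in G1 it was 0.08. The 5 deepest peaks of the comparison were all telomeric and did not follow the smaller ones, with ratios from -0.27 to 0.05. The deepest, on chromosome VI at position 4584, had 157, 174 and 206 reads in SSDDCS and 214, 205 and 231 in sml1∆.

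Among the lower peaks, the deepest was 175 bp upstream of ISU2, a scaffold for iron-sulphur clusters, and 566 bp upstream of the divergent gene HER1. It had 23, 39 and 24 reads in SSDDCS and 51, 88 and 66 in sml1∆ (log2 ratio -1.25, share 29.6%, 24.4% to 35.2%). SSDDCS was below sml1∆ at all 12 times, with 35 reads in SSDDCS and 83 in sml1∆ in G1 and a ratio of -0.82 over the 9 times before 45 min. This footprint was thus among the 3 lower peaks already past 2-fold in G1.

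The lowest ratio belonged to the promoter between LEU4 (the first enzyme of leucine synthesis) and MET4 (the activator of sulphur amino acid genes). At chromosome XIV position 427226 it had 9, 9 and 11 reads in SSDDCS and 21, 33 and 29 in sml1∆ (log2 ratio -1.50, share 25.9%, 18.1% to 35.0%). A second peak of the same promoter, 222 bp upstream of LEU4 at 426976, had 15, 10 and 16 reads in SSDDCS and 26, 39 and 28 in sml1∆ (-1.17). Both were below sml1∆ at 11 of 12 times, and the 9 earlier times gave ratios of -0.53 and -0.27. The peaks were named for their late ratios, so smaller earlier ones can come from that choice.

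NOC3 encodes a protein of ribosome assembly that also acts in replication licensing. The peak 275 bp upstream of it, at chromosome XII position 156609, had 10, 2 and 11 reads in SSDDCS and 20, 16 and 23 in sml1∆ (log2 ratio -1.34, share 28.0%, 18.7% to 39.1%). The ratio was -1.21 at 15 to 25 min, 0.19 in G1 and -0.37 over the 9 earlier times, and an annotated origin lay 39 bp away. HEM13 (haem synthesis) had a peak 206 bp upstream with 13, 7 and 10 reads in SSDDCS and 20, 27 and 25 in sml1∆ (-1.25), and -0.32 earlier. PMA1 (the plasma membrane proton pump) had a peak 243 bp upstream with 6, 2 and 8 reads in SSDDCS and 14, 5 and 19 in sml1∆ (-1.22), where the groups overlapped. Between GAL2 (the galactose permease) and SRL2, the reads of 11, 7 and 3 in SSDDCS and 23, 10 and 17 in sml1∆ (-1.23) overlapped too, and the earlier times gave 0.13. Both of these peaks rest on fewer than 24 reads in any library.

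The remaining named lower peaks were shallow. They lay inside OCA5, with 6, 5 and 2 reads in SSDDCS and 8, 15 and 14 in sml1∆ (log2 ratio -1.47), and inside TRR1 (thioredoxin reductase), with 5, 7 and 9 in SSDDCS and 17, 16 and 14 in sml1∆ (-1.14). The peak at 950180 of chromosome XII, 976 bp upstream of INA1, had 8, 14 and 15 reads in SSDDCS and 27, 32 and 25 in sml1∆ (-1.17), while its earlier ratio was -0.06. The promoter shared by HTS1 (histidyl-tRNA synthetase) and ARP7 (a subunit of the SWI/SNF and RSC remodellers) had 9, 3 and 7 in SSDDCS and 21, 10 and 11 in sml1∆ (-1.12). The promoter of PCA1 (a cadmium exporter) had 4, 10 and 5 in SSDDCS and 15, 11 and 16 in sml1∆ (-1.12). None of these 5 peaks had overlapping groups once reads were scaled, and their ratios over the 9 earlier times lay between -0.35 and -0.06.

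One gene family inside the excluded interval stood lower than any compared peak and was chosen after its values were seen. ASP3, the asparaginase of the cell wall, has 4 copies beside the ribosomal DNA on chromosome XII, and the 4 annotated coding sequences of 1089 bases are 100% identical in R64. Summed over the 25 peaks inside them, reads were 48, 39 and 35 in SSDDCS and 206, 222 and 186 in sml1∆ (log2 ratio -2.33, 5.01-fold lower, share 16.6%, 14.0% to 19.5%). The copies each were lower, from -1.89 at ASP3-1 to -3.14 at ASP3-2. The difference was there in G1, with 45 reads in SSDDCS and 185 in sml1∆, and over the 12 times the sums ran from 32 to 59 in SSDDCS and from 184 to 268 in sml1∆. Nearby sequence shared it in part. Peaks from 474000 to 475999, where ASP3-2 reaches only to 474057, summed to 36 reads in SSDDCS and 141 in sml1∆ (-1.95). By contrast, the 5S genes RDN5-3 to RDN5-6 between the copies had 3338 reads in SSDDCS and 3546 in sml1∆ (-0.09). The Ty element YLR157C-B had 742 and 692 (0.10). Reads of these repeated sequences may come from other copies too. The ASP3 copies, being identical, share reads, so none can be assigned a value of its own. The number of ASP3 copies in each strain was not tested.

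The ribosomal DNA interval as a whole differed little. Its 104 peaks with 240 or more reads had 408762 pooled reads in SSDDCS and 439319 in sml1∆ (log2 ratio -0.10). By time, the interval took 29.0%, 27.9% and 26.6% of all reads in SSDDCS and 27.7%, 29.3% and 31.0% in sml1∆, with a ratio of 0.09 at 45 min, -0.09 at 50 min and -0.31 at 60 min.

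To look for differences spread over many shallow peaks, reads of peaks of every depth were summed in 2 kb bins, a step added after the data were seen. Of 6036 bins with 60 or more reads, 5 were higher (0.0828%) and 3 lower (0.0497%). The higher bins held GAL10 and GAL1 (log2 ratio 1.58), CDC45 (1.91), SLD3 (1.55), HIS3 and DED1 (1.29), and SOK1 and TRP1 (1.10). The lower bins overlapped ASP3-1 (-2.35), ASP3-4 (-2.23) and ASP3-2 (-1.95) and took in sequence beside them. ASP3-1 filled its bin, 470000 to 471999, only to 470405, and ASP3-2 its bin, 474000 to 475999, only to 474057. The other bins lay between -0.86 and 0.92. At this resolution the bins past 2-fold were those of altered loci and of ASP3 with the sequence beside it.

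Taken without regard to depth, promoter peaks had a lower median than coding peaks. The 3790 promoter peaks had a median log2 ratio of -0.13, with 64.8% of them below 0, and the 1302 coding peaks a median of 0.03, with 46.3% below 0. Promoter and coding peaks had medians of -0.08 and 0.05 at 15 to 25 min, of -0.05 and 0.11 at 45 min, of -0.19 and 0.03 at 50 min and of -0.14 and -0.05 at 60 min. The median of all peaks was 0.01 in G1, 0.02 at 45 min, -0.15 at 50 min and -0.11 at 60 min, but it was also -0.21 at 5 min and -0.19 at 20 min, so it moved from library to library before S phase ended as well. Depth moved with it. In the 786 peaks with 600 or more reads the median was -0.17, and in the 1798 peaks with 240 to below 300 reads it was -0.05. Without telomeric regions and transposons, promoter and coding peaks of at least 600 reads had medians of -0.19 and -0.15, and those of 240 to below 300 reads had -0.09 and 0.00. The share of a library's reads that fell in the compared peaks moved the same way. It was 28.0%, 30.1% and 29.9% in SSDDCS and 28.0%, 33.4% and 32.5% in sml1∆ at 45, 50 and 60 min. Its part in the shift was not tested.

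**Figure D4:**
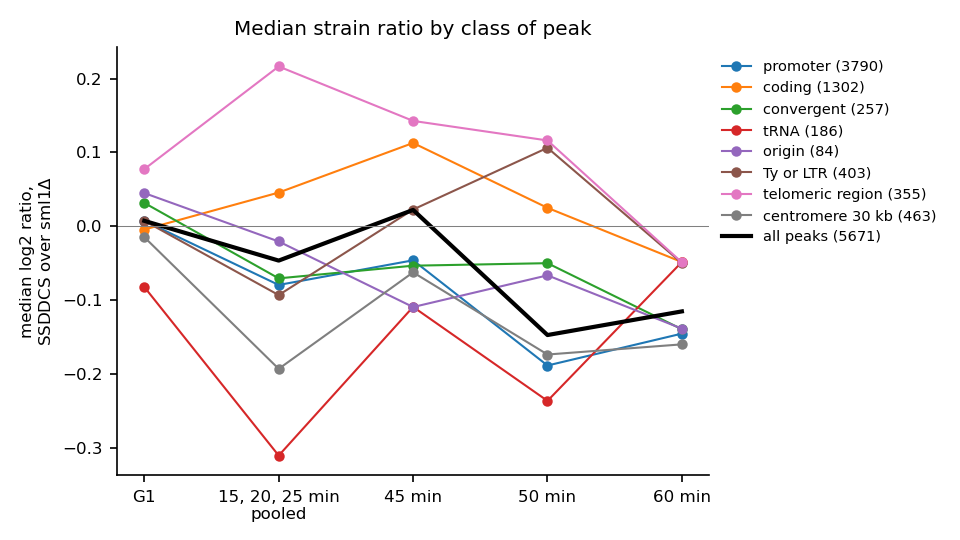
Median log2 ratio, SSDDCS over sml1∆, of 8 classes of peak and of all 5671 peaks (black), in G1, pooled over 15, 20 and 25 min, and at 45, 50 and 60 min. Telomeric regions are above the other classes up to 50 min and at -0.05 at 60 min, tRNA genes are lowest at 15 to 25 min (-0.31), and promoters are at -0.19 at 50 min.

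Peaks at annotated origins, where the overexpressed factors act, had the same median as all peaks. The 84 of them had a median ratio of -0.10, and none was called in either direction. Calls covered 0.652% and 0.723% of all compared peaks in the higher and lower direction, so a class of this size can be without a call. The 186 peaks within 100 bp of a tRNA gene had -0.13, with 2 lower, after -0.31 at 15 to 25 min, when all peaks had -0.05. Transposons and long terminal repeats (403 peaks) had 0.00 with 3 lower. Within 30 kb of a centromere, 463 peaks had -0.15 with 4 higher and 4 lower. Within 30 kb of a chromosome end, 722 peaks had 0.02 with 13 higher and 1 lower, and those outside telomeric regions had -0.05.

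The footprints of gene groups were followed through the deepest compared peak up to 1000 bp upstream of each gene. Outside the altered loci, 2 genes of the lists had this deepest peak called. BUD8 (bud site selection) of the CLB2 cluster had 20, 20 and 15 reads in SSDDCS and 7, 11 and 7 in sml1∆ 690 bp upstream (log2 ratio 1.12), and NOC3 was described above. The remaining lists are described by their medians, all to be read against -0.10 for all peaks, of which 59.6% lay below 0. The lists were drawn up with earlier results of these data known.

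Genes of the mating pheromone response, which Ste12 activates under alpha factor, had the lowest median, -0.32 over 13 peaks, with 12 of 13 below 0 and none past 2-fold. STE18, a subunit of the receptor's G protein, had 14, 17 and 8 reads in SSDDCS and 16, 25 and 27 in sml1∆ (log2 ratio -0.79), and FUS2 (cell fusion) had 109 pooled reads in SSDDCS and 156 in sml1∆ (-0.51). FUS3, the kinase of the pathway, had 63 and 60 (0.07, and -0.13 without 45 min). Summed over the list, the ratio was -0.01 in G1, -0.23 at 15 to 25 min, -0.04 at 45 min, -0.42 at 50 min and -0.57 at 60 min. The list was thus close to sml1∆ in G1 and at 45 min and below it in the other windows. The median of all peaks moved the same way by less, with 0.01 in G1 and 0.02 at 45 min. It was -0.05 at 15 to 25 min, -0.15 at 50 min and -0.11 at 60 min. Peaks with the Ste12 site had a median of -0.17, with 3 higher and 2 lower among 124.

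Genes of glycolysis and fermentation had a median of -0.19, with 17 of 20 peaks below 0 and a list sum of -0.07, -0.20 and -0.30 at 45, 50 and 60 min. CDC19 (pyruvate kinase) had 81 pooled reads in SSDDCS and 111 in sml1∆ (log2 ratio -0.45), PGK1 (phosphoglycerate kinase) had 112 and 152 (-0.44), and TDH1 (glyceraldehyde phosphate dehydrogenase) had 67 and 57 (0.23). Ribosome biogenesis genes had -0.22 with 16 of 21 below 0. RRP5 (ribosomal RNA processing) had 43 pooled reads in SSDDCS and 80 in sml1∆ (-0.89), NOC2, the partner of Noc3 in assembly, had 24 and 42 (-0.79, with -1.63, 0.80 and -1.73 at the 3 times), and NOP13 had 35 and 27 (0.37). The 122 distinct peaks of ribosomal protein genes stayed at -0.07, from -0.65 at RPL6B to 0.83 at RPL14B.

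Among the deepest upstream peaks, those of cell cycle groups showed no call besides BUD8. The called lower peak inside OCA5 lay 966 bp upstream of WSC4, of the CLB2 cluster, but was not the deepest there. The M/G1 genes, among them the helicase loading genes, had -0.18 with 8 of 9 below 0. Of these, MCM3 had 31 pooled reads in SSDDCS and 49 in sml1∆ (log2 ratio -0.65) and MCM7 had 128 and 174 (-0.44), and the homeobox repressor gene YHP1 had 54 and 50 (0.11). The list sum was -0.52 at 50 min, but -0.14 at 45 min and -0.06 at 60 min. G1/S genes had -0.12 over 18 peaks and the CLB2 cluster -0.03 over 19. In the CLB2 cluster, CHS2 (the chitin synthase of the septum) had 27 pooled reads in SSDDCS and 52 in sml1∆ (-0.93). The 8 core histone genes share 4 divergent promoters, with a median of -0.18, and the promoter of HTA2 and HTB2 had 37 pooled reads in SSDDCS and 24 in sml1∆ (0.61).

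Groups of stress and regulation held no called peak outside the GAL1-GAL10 promoter. DNA damage genes had -0.01 over 12 peaks, from RAD53 (the checkpoint kinase), with 48 pooled reads in SSDDCS and 87 in sml1∆ (log2 ratio -0.85), to RNR1 (ribonucleotide reductase), with 45 and 32 (0.49). The RNR1 value rests on 45 min, with 20 reads in SSDDCS and 3 in sml1∆, and without that time it was -0.22. Heat shock and stress genes had -0.10 over 14 peaks, chromatin assembly genes -0.16 over 10, and thiamine and phosphate genes -0.16 over 17, where PHO5 (the secreted acid phosphatase) had 22 pooled reads in SSDDCS and 39 in sml1∆ (-0.81). Meiotic genes under the repressor Ume6 had -0.30 over 11 peaks, but 0.09 over all their peaks within 500 bp of a start. IME1, the inducer of meiosis, had 21 pooled reads in SSDDCS and 36 in sml1∆ (-0.76), and SPS4 had 74 and 45 (0.71). The galactose regulon without GAL1 and GAL10 ran from GCY1, with 69 reads in SSDDCS and 104 in sml1∆ (-0.59), to MTH1, with 101 and 74 (0.45), and GAL7 and GAL3 both had -0.26, with both signs among the 3 times. The rise at the construct promoter was thus not shared by the native promoters of other galactose genes.

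**Figure D5:**
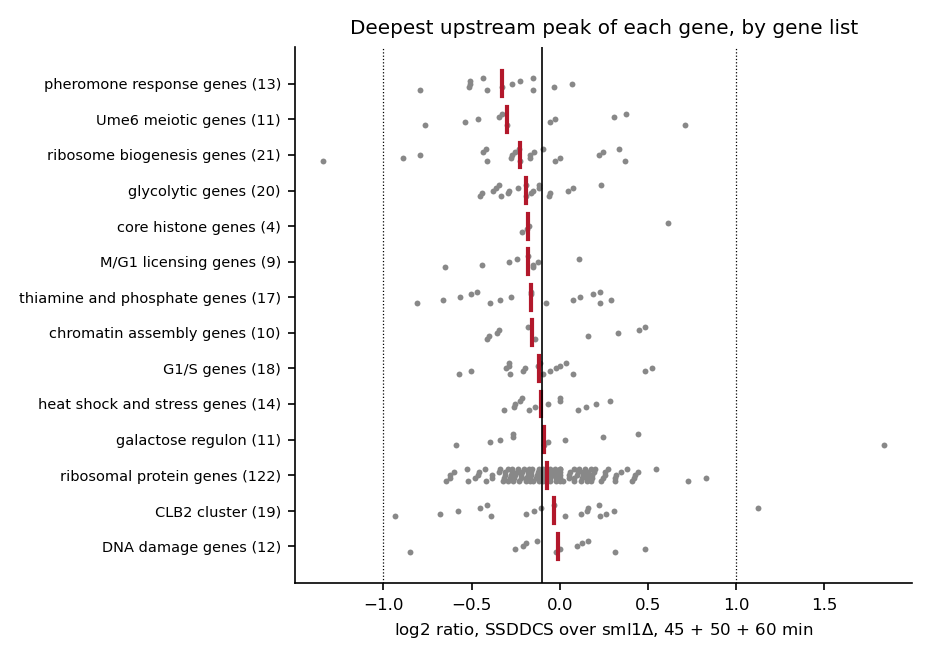
Log2 ratio of pooled reads, SSDDCS over sml1∆, at 45, 50 and 60 min of the deepest peak up to 1000 bp upstream of each gene in 14 lists, with the number of distinct peaks in parentheses. Red bars are list medians, the black line is the median of all peaks (-0.10) and dotted lines are the 2-fold limits, which only the GAL1-GAL10 promoter, BUD8 and NOC3 pass.

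Over 18 factor motifs and an added Abf1 spacing, searched within 50 bp of the peak, median ratios ran from -0.17 for Ste12 to 0.00 for Gcn4, on either side of the -0.10 of all peaks. Peaks with the Reb1 site (314 peaks) had -0.16, with 72.3% below 0, and peaks with the Abf1 site (638 peaks) -0.13. The Gal4 site, on 98 peaks, had -0.11 and 1 higher peak, and the Ume6 site, on 254 peaks, had -0.10 with 3 higher and 1 lower.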

How the data were processed

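MNase-digested DNA of sub-nucleosomal size was sequenced from both strains. The deposited values are whole-number read counts per peak, 1 column per library. The authors mapped reads to S288C R64 (sacCer3) with Bowtie2 2.2.6 and SAMtools 0.1.19, drew equal read numbers for each fragment length from all libraries, called peaks on the merged reads and then counted every library at those peaks, so that differences in fragment length are no longer visible. The width of the counting window is not given in the sources used here, and 1901 compared peaks have a neighbour within 200 bp. Columns of values that belong to none of the samples numbered 0.

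Counts were divided by library totals without the ribosomal DNA interval and pooled per strain over 45, 50 and 60 min. With 1 library per strain and time no p-value was computed, and calls are a 2-fold rule (log2 ratio of 1, 0.5 added). Peaks were placed on the RefSeq annotation of R64, which gives start codons. Peaks were named where they were among the 12 highest or lowest called ones with 1 sign at 3 times and an interval off the equal share, outside altered loci, ribosomal DNA and transposons. Also named were the deepest peak of each altered locus, the extremes of each gene list (up to 4) and the 5 deepest peaks. Some results are not reported here, among them 1 of the 12 higher peaks. The DED1, ASP3, shared-run and bin results, and further list members, were chosen after their values were seen. The peaks compared and the lists were chosen with earlier results of these data known. The ratio was tried on simulated counts with counting error only and planted changes larger than 2-fold. That trial does not test the 2-fold calls in these libraries. Python 3.11.15, numpy 2.4.6, pandas 2.3.3, scipy 1.17.1 and matplotlib 3.10.9 were used.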

Additional observations from a re-analysis of the deposited data

How the results depend on the processing

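The counts of 37 higher and 41 lower peaks depended on depth and threshold. They were 229 and 374 at 1.5-fold, 12 and 0 at 3-fold, 5 and 4 with 480 or more reads, and 3358 and 2299 with 24 or more reads. A pseudocount of 5 gave 11 lower peaks, centring on the median peak 17, and subtracting the G1 ratio 250 higher and 373 lower. Leaving out 1 time gave 52 to 85 higher and 76 to 83 lower peaks. Without altered loci and telomeric regions, 14 higher peaks were left, and 38 lower ones without transposons. Of peaks with 1 sign at all 3 times, 5 higher and 4 lower had 480 or more reads, and 23 lower ones were also past 2-fold at 2 or more single times. With 480 or more reads, the median near centromeres was -0.22, and the mean share past 2-fold was 3.89% between strains and 3.25% between successive times. Centring moves every ratio by 0.10 and totals with the ribosomal DNA by 0.03.

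Of 30 named called peaks, 20 stayed past 2-fold with each time left out, 10 did not and 0 changed sign. After subtracting G1, 15 stayed and 7 changed sign, to -0.52 at X 526730, -0.26 at IV 1525239, -0.36 at XVI 946429, 0.083 at II 792403, -0.78 at II 278740, and 1.30 and 0.11 at the ASP3 peaks XII 483108 and XII 486759. The cause was not tested. No paired analysis was possible because each strain and time has 1 library and no replicate number. At these depths, differences below 2-fold in a single peak are mostly within counting error.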
